A study of Homo sapiens with 6 samples.

Results

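Fatty acid desaturases and elongases were followed by name: the 10 genes FADS1, FADS2, FADS3, ELOVL1, ELOVL2, ELOVL5, ELOVL6, ELOVL7, SCD and SCD5, out of 17758 genes in the expression table. All 10 were found and all 10 had enough reads to be tested, among 13824 tested genes. RNA was sequenced from T47D, a human oestrogen receptor-positive line from a breast ductal carcinoma, in 6 libraries: 3 of the control line (shNC), which carries a lentiviral hairpin with no target, and 3 of the line in which a lentiviral hairpin silences CUEDC1 (shCUEDC1). Both groups were stably transduced lines in the same medium, and shNC stood for unaltered CUEDC1. The labels do not say how many hairpins were used or whether the 3 libraries of a group came from separate transductions, so the p-values measure only the spread between these libraries. The series was made to find genes downstream of CUEDC1 in cells with a high level of it.

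Desaturases place double bonds in fatty acyl chains, and ELOVL elongases start the cycle that lengthens those chains by a pair of carbons. FADS2 (delta-6 desaturase), ELOVL5, FADS1 (delta-5 desaturase) and ELOVL2 act in sequence on the essential fatty acids from the diet and yield long polyunsaturated chains such as arachidonic and docosahexaenoic acid. SCD makes oleic and palmitoleic acid from saturated chains, ELOVL6 lengthens palmitic to stearic acid, and ELOVL1 and ELOVL7 make very long saturated chains. In cancer cells that grow on newly made fat, SCD is known for supplying the unsaturated chains that keep membranes fluid.

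CUEDC1, the target of the short hairpin RNA, stood at 79.4, 80.5 and 70.6 TPM (a transcript level corrected for gene length and scaled to the same sum in every library) in shNC 1 to 3 and at 23.2, 24.4 and 22.8 TPM in shCUEDC1 1 to 3. Totals per library were between 18924327 and 19731609 estimated reads. The library shNC 3 stood apart. The SD over 10142 genes of the log2 difference was 0.109 between shNC 1 and 2, 0.246 and 0.266 between shNC 3 and those, and 0.235 to 0.247 when either of that pair was set against a knockdown library. Results are therefore also given without shNC 3. Luminal epithelial markers summed to between 10220 and 12702 TPM in shNC and between 12310 and 12731 TPM in shCUEDC1, all 9 were expressed and none of the 9 was called changed by edgeR, although 2 were higher at an unadjusted p under 0.05 and 1 was called by DESeq2. Without shNC 3 edgeR called 3 of the 9 higher, where 14.3% of all genes were: ESR1 (log2 change 0.30, adjusted p = 1.92e-06), FOXA1 (0.20, 3.93e-04) and PGR (0.22, 0.00137), whose log2 difference was -0.08 with all libraries. These 3 are named after their values were seen, and their part in the results was not tested. Adipocyte markers summed to 11.9 to 12.5 TPM in shNC and 10.1 to 13.8 TPM in shCUEDC1, mostly CIDEC, with 6 of 7 under 1 TPM on average. Stromal, endothelial and immune markers summed to 44.6 to 61.2 and 51.6 to 57.6 TPM, and COL1A1 alone of 7 tested was called (higher). Without shNC 3 these and the adipocyte markers had 1 rise and 1 fall, and 1 rise and 0 falls. In that fit 13.8% of all genes were called lower, while with all libraries 5.19% were called higher and 4.77% lower.

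Of the 10 genes, 2 rose and 3 fell in shCUEDC1, and 5 were not called (edgeR quasi-likelihood test, Benjamini-Hochberg adjusted p below 0.05 over all tested genes). Over all tested genes 9.96% were called, 5.19% higher and 4.77% lower. Without shNC 3 the same 5 members were called, 2 higher and 3 lower, where 28.1% of all genes tested were called. Leaving out shNC 2 gave 1 higher and 3 lower, where 1013 of all genes were called. Leaving out any other single library gave 1 and 1, where 468 to 688 were called, against 1377 with all libraries. The risers were both elongases, ELOVL2 and ELOVL5. The fallers were all desaturases, SCD, FADS2 and FADS1. All 4 enzymes of the polyunsaturated route were among the called genes, and of the others only SCD was. The 5 called genes were also those whose groups did not overlap, which held for 31.3% of tested genes. The median log2 change of the 10 was 0.05, and the median size of change without its sign was 0.26, against -0.004 and 0.12 over all tested genes.

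**Figure D1:**
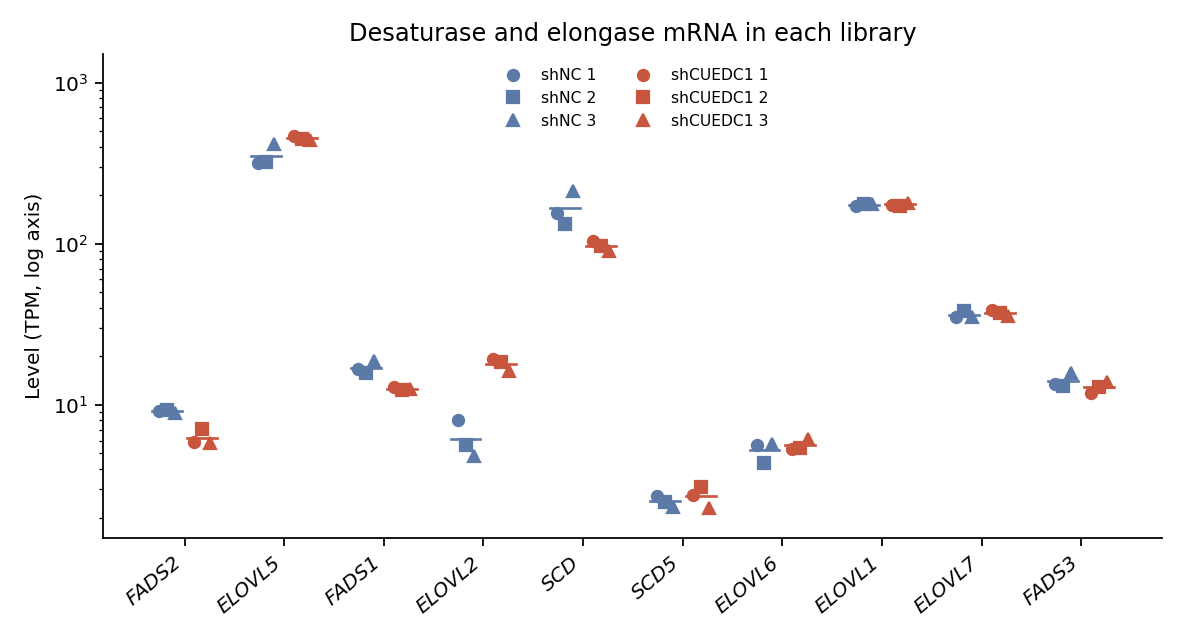
Level of each gene (TPM, log axis) in the 6 libraries, ordered by role from the polyunsaturated route on the left, with shNC in blue, shCUEDC1 in red, a symbol for each replicate number and a line at each group mean. ELOVL2 and ELOVL5 lie higher, and FADS2, FADS1 and SCD lower, in every shCUEDC1 library than in any shNC library.

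The upstream windows of the 5 genes that differed are shown because they include the adjacent FADS1 and FADS2, which fell together, and the elongases that rose. Each is the 250 bases before the gene's start in RefSeq (GRCh38.p14), 5′ to 3′ on the gene's own strand, with capitals at CCAAT or its complement ATTGG, the letters bound by the factor NF-Y. FADS2 has a further start in that table, and the upstream one is shown. Both FADS2 starts lie inside the spans that GENCODE gives for FADS2 and for FADS1. Which start these cells use was not measured, so the window shown need not be the main promoter of FADS2. All 10 genes matched a RefSeq entry.
FADS1, chr11:61817004-61817253, minus strand: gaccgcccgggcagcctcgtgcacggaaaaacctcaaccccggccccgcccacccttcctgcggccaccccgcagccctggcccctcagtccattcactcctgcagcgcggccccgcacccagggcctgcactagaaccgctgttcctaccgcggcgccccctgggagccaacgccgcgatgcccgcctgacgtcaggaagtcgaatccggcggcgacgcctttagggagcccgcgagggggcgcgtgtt
FADS2, chr11:61815953-61816202, plus strand: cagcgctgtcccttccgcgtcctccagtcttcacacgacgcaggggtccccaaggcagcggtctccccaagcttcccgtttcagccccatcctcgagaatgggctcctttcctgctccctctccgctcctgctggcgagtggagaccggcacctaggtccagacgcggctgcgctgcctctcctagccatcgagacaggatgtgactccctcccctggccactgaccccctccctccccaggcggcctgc
SCD, chr10:100346983-100347232, plus strand: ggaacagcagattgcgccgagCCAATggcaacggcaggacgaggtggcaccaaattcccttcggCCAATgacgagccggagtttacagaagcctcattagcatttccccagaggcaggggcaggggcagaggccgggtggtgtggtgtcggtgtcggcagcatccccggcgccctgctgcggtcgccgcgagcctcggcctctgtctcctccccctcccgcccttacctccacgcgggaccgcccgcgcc
ELOVL5, chr6:53348951-53349200, minus strand: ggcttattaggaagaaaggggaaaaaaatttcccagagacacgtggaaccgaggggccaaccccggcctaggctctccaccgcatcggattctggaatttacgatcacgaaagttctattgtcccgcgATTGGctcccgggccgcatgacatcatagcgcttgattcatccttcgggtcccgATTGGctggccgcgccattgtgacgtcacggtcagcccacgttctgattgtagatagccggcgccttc
ELOVL2, chr6:11044306-11044555, minus strand: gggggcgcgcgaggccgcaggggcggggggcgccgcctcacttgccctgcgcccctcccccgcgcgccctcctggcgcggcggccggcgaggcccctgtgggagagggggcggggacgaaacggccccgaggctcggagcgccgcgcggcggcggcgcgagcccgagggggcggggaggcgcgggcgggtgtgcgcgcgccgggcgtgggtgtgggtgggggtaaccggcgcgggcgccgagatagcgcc

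Letters searched on both strands were CCAAT, the GC box GGGCGG and the sterol regulatory element letters TCACNCCAC. CCAAT occurred 2 times each in the windows of SCD and ELOVL5, one of which fell and the other rose, and in none of those of FADS1, FADS2 and ELOVL2. Over all 10 genes it was in the windows of 5, and in 32.0% of 35116 RefSeq windows of this length. The GC box was absent from the windows shown for ELOVL5 and FADS2. With the window of the further FADS2 start counted too, 9 of the 10 genes held it, as did 42.6% of all windows. ELOVL2 held 4 of them in a window of 84.8% G and C, against 56% for ELOVL5. The sterol letters were in no window of the 10 and in 0.883% of all windows, and other forms of the element were not searched. These are matches of letters in a short window, and binding was not measured. For FADS2 they describe only the windows of the RefSeq starts used, and other possible promoters of the gene were not searched. RefSeq's FADS1 start lies 800 bases from the FADS2 start shown and 599 from the other. The strands are opposite, and transcripts from these starts would read toward each other. The gene starts annotated in GENCODE differ from these, with that of FADS2 at -36.3 kb from that of FADS1.

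FADS2 (Entrez 9415, chromosome 11 from 61792980 to 61867354, plus strand, GRCh38 as annotated in GENCODE 29) makes the first, delta-6 step of the polyunsaturated route. Its level was 9.15, 9.35 and 8.96 TPM in shNC 1 to 3 and 5.91, 7.06 and 5.78 TPM in shCUEDC1 1 to 3. The 3 control values lay close together, and every knockdown value lay below them. FADS2 fell by 30.0% (95% bounds -40.6% and -17.5%), or -0.51 in log2 terms with an SE of 0.106 (adjusted p = 0.0151 by edgeR). Without shNC 3 the log2 change was -0.54. The call was lost when shNC 1, shCUEDC1 1 or shCUEDC1 3 was left out, with an edgeR adjusted p of 0.0598, 0.0839 and 0.0831.

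FADS1 (Entrez 3992, chromosome 11 from 61799625 to 61829318, minus strand) makes the delta-5 step that yields arachidonic acid. It stood at 16.6, 15.7 and 18.7 TPM in shNC and at 12.8, 12.4 and 12.6 TPM in shCUEDC1. The knockdown libraries were nearly alike, and shNC 3 was the highest of all. FADS1 fell by 25.02% (95% bounds -33.2% and -15.8%), or -0.42 in log2 terms with an SE of 0.0749 (adjusted p = 0.00812 by edgeR). Without shCUEDC1 2 its edgeR adjusted p was 0.0612, and in the other 5 fits with 1 library left out it stayed called. The ratio of FADS1 to FADS2 was 1.86 ± 0.205 in shNC and 2.04 ± 0.247 in shCUEDC1 (SD, n = 3 each), with overlapping groups. In GENCODE the annotated spans of FADS1 and FADS2 overlap on opposite strands, and FADS2 also overlaps FEN1 on the same strand. The use of strand in counting is not given in the sources used here, so reads from these overlaps cannot be assigned with certainty.

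ELOVL5 (Entrez 60481, chromosome 6 from 53267398 to 53349179, minus strand) lengthens chains of 18 carbons between the steps of FADS2 and FADS1, and also chains of 20 carbons. It was the most abundant of the 10 genes, at 316, 323 and 417 TPM in shNC and 466, 449 and 440 TPM in shCUEDC1. The library shNC 3 lay nearer to the knockdown than to the other controls, yet the groups did not overlap. ELOVL5 rose 1.31-fold (95% bounds 1.14 and 1.499), or 0.39 in log2 terms with an SE of 0.0873 (adjusted p = 0.0252 by edgeR). Without shNC 3 the log2 change was 0.51 with an edgeR adjusted p of 4.56e-12. Leaving out any of the other 5 libraries lost the call, with an edgeR adjusted p between 0.0653 and 0.106, and limma-trend on log2(TPM + 0.5) gave an adjusted p of 0.0515.

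ELOVL2 (Entrez 54898, chromosome 6 from 10980759 to 11044314, minus strand) takes chains of 20 and 22 carbons to the precursors of docosahexaenoic acid, and is known as an oestrogen-induced gene in breast cells. Its level was 8.06, 5.67 and 4.82 TPM in shNC and 19.1, 18.5 and 16.1 TPM in shCUEDC1. The lowest knockdown value was well above the highest control value, and the controls differed among themselves more than the knockdown libraries on the log scale. ELOVL2 rose 2.95-fold (95% interval 2.26 to 3.84), or 1.56 in log2 terms with an SE of 0.168 (adjusted p = 0.00115 by edgeR). It was the only member both called and over 2-fold, which held for 1.17% of tested genes. It stayed called in all 6 fits with 1 library left out, where its log2 change ranged from 1.40 without shNC 3 to 1.81 without shNC 1.

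Within the polyunsaturated route the elongases and desaturases thus moved apart. The ratio of ELOVL2 to FADS2, from TPM in the same library, was 0.881, 0.606 and 0.538 in shNC 1 to 3 and 3.24, 2.62 and 2.79 in shCUEDC1 1 to 3. In shNC there was less message of the last elongase than of the first desaturase, and in shCUEDC1 there was more. The ratio of ELOVL5 to FADS2 was 34.5, 34.6 and 46.5 in shNC and 78.9, 63.7 and 76.1 in shCUEDC1. Each ratio sets a gene that rose without overlap over 1 that fell without overlap, so it had to separate the groups. These ratios describe the size of the gap and are no added support. RNA levels give neither enzyme amounts nor the flow of fatty acids, which were not measured.

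**Figure D2:**
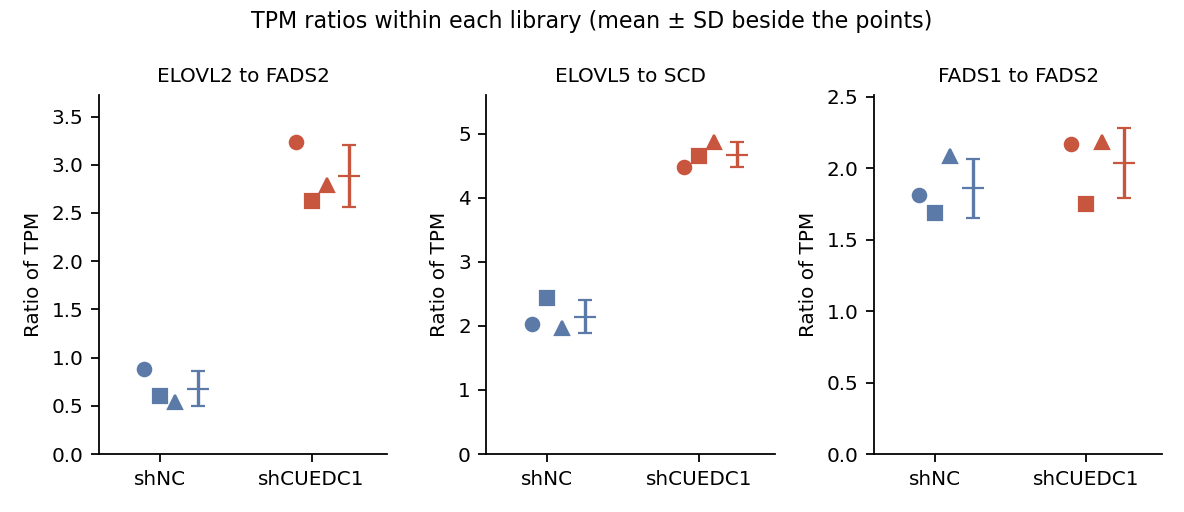
Ratios of TPM between pairs of genes in each library, with shNC in blue, shCUEDC1 in red, a symbol for each replicate number, and the mean ± SD of 3 libraries beside the points. ELOVL2 to FADS2 and ELOVL5 to SCD are higher in every shCUEDC1 library, while FADS1 to FADS2 overlaps between the groups.

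SCD (Entrez 6319, chromosome 10 from 100347124 to 100364834, plus strand) is the main delta-9 desaturase and the source of monounsaturated fat in most cells. It stood at 155, 133 and 212 TPM in shNC and at 104, 96.6 and 90.3 TPM in shCUEDC1. The controls were wide apart with shNC 3 at the top, and the knockdown libraries were close together below them. SCD fell by 40.6% (95% bounds -53.5% and -24.3%), or -0.75 in log2 terms with an SE of 0.149 (adjusted p = 0.0226 by edgeR). Without shNC 3 the log2 change was -0.56 and the edgeR adjusted p was 7.03e-04. The call was lost without shNC 1 or any 1 shCUEDC1 library, with an edgeR adjusted p between 0.0678 and 0.0795, and without a filter on low counts (0.0673).

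SCD5 (Entrez 79966, chromosome 4 from 82629539 to 82798857, minus strand), the second human delta-9 desaturase, was the least abundant member. Its level was 2.73, 2.51 and 2.34 TPM in shNC and 2.76, 3.09 and 2.30 TPM in shCUEDC1, from 55.2 to 79.2 estimated reads a library. The groups overlapped, and the log2 difference was 0.09 (adjusted p = 0.803 by edgeR, with 95% bounds of -0.30 and 0.48). At this depth a change as large as that of SCD lay outside the interval, but one of the size of ELOVL5 did not. Its sign turned without shNC 3 and without shCUEDC1 2, at -0.0014 and -0.0047.

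ELOVL6 (Entrez 79071, chromosome 4 from 110045846 to 110199199, minus strand), which supplies SCD with stearic acid, was at 5.60, 4.37 and 5.68 TPM in shNC and 5.30, 5.42 and 6.11 TPM in shCUEDC1. Its groups overlapped, with a log2 difference of 0.14 (adjusted p = 0.505 by edgeR, with 95% bounds of -0.12 and 0.40). The interval does not reach a fall of the size seen for SCD, but it includes a rise of the size estimated for ELOVL5.

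ELOVL1 (Entrez 64834, chromosome 1 from 43363397 to 43368074, minus strand), the elongase of very long saturated chains used in sphingolipids, was the steadiest member. It stood at 171, 176 and 176 TPM in shNC and 174, 172 and 180 TPM in shCUEDC1, and its log2 difference was 0.04 (adjusted p = 0.675 by edgeR, with 95% bounds of -0.07 and 0.15). ELOVL7 (Entrez 79993, chromosome 5 from 60751791 to 60844389, minus strand), of the same subfamily, was at 35.2, 38.3 and 34.9 TPM in shNC and 38.9, 37.3 and 35.4 TPM in shCUEDC1. Its log2 difference was 0.06 (adjusted p = 0.554 by edgeR, with 95% bounds of -0.07 and 0.20). For both, the interval leaves out a change of the size estimated for ELOVL5.

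FADS3 (Entrez 3995, chromosome 11 from 61873519 to 61892051, minus strand), which desaturates sphingoid bases, lies beside FADS1 and FADS2. It was at 13.4, 13.1 and 15.9 TPM in shNC and 11.9, 12.9 and 13.9 TPM in shCUEDC1. Unlike those of its neighbours, its groups overlapped, and its log2 difference was -0.10 (adjusted p = 0.635 by edgeR, with 95% bounds of -0.35 and 0.15). The difference between the changes of FADS3 and FADS2 was not tested.

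**Figure D3:**
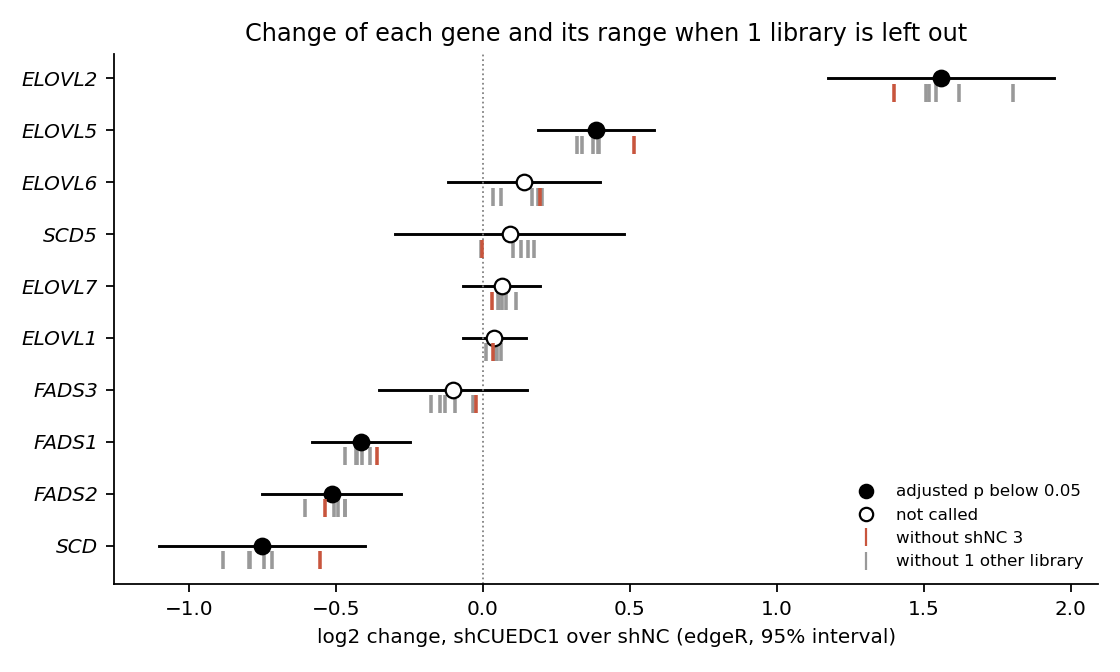
Log2 change of each gene, shCUEDC1 over shNC, from edgeR with its 95% interval, filled where the adjusted p was below 0.05. Ticks under each point give the change with 1 library left out, in red without shNC 3, which lowers the size of the SCD change to 0.56 (-0.56) and raises that of ELOVL5 to 0.51.

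In shNC the order by mean TPM was ELOVL5 (352), ELOVL1 (174), SCD (167), ELOVL7 (36.1), FADS1 (17.0), FADS3 (14.1), FADS2 (9.15), ELOVL2 (6.18), ELOVL6 (5.22) and SCD5 (2.53). ELOVL1 and SCD, FADS1 and FADS3, and ELOVL2 and ELOVL6 overlapped over the 3 libraries, and the other neighbours did not. In shCUEDC1 ELOVL2, at a mean of 17.9 TPM, moved up to the fifth place, above FADS3 (12.9), FADS1 (12.6) and FADS2 (6.25). SCD, at a mean of 97.0 TPM, then lay below ELOVL1 (175) in every library. FADS3 and FADS1, and FADS2 and ELOVL6 (5.61), overlapped there.

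The 5 elongases summed to 536, 547 and 638 TPM in shNC and to 703, 683 and 677 TPM in shCUEDC1. ELOVL5 alone made up 61.1% ± 3.68 of that sum in shNC and 65.7% ± 0.660 in shCUEDC1 (SD, n = 3 each), and its shares overlapped between the groups. ELOVL2 made up 1.10% ± 0.379 and 2.60% ± 0.195, higher in all 3 shCUEDC1 libraries (exact two-sided permutation p = 0.1, the smallest possible, and 0.25 adjusted over the 5 elongases). ELOVL1 went from 30.5% ± 2.61 to 25.5% ± 0.926, lower in all 3 (exact permutation p = 0.1, adjusted 0.25), while its own level differed little. No share can pass the threshold with 3 libraries against 3. The 3 FADS genes summed to 39.1, 38.2 and 43.5 TPM in shNC and to 30.6, 32.3 and 32.3 TPM in shCUEDC1, so the summed FADS message was lower and the summed elongase message higher in every knockdown library.

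The ratio of ELOVL5 to SCD was 2.03, 2.44 and 1.96 in shNC and 4.48, 4.65 and 4.87 in shCUEDC1. It too sets a gene that rose over 1 that fell, each without overlap, so the groups had to separate. In shNC 3 both genes were above the other controls, SCD by 0.52 and ELOVL5 by 0.35 on the log2 scale, and its ratio lay just below theirs. ELOVL2 was 0.54 below the other controls there (-0.54). The part of shNC 3 in these values was not tested beyond leaving it out.

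Over the 6 libraries, log2 library-scaled counts (CPM) of SCD and FADS1 had a Pearson r of 0.97, FADS1 and FADS2 one of 0.82, and SCD and FADS2 one of 0.78. ELOVL2 had an r of -0.93 with FADS1 and of -0.91 with SCD. ELOVL5 had an r of 0.71 with ELOVL2 and -0.56 with SCD. These 6 points share the contrast between the groups, so the values describe and do not test. Among 10141 other genes that averaged 10 CPM or more, those most like ELOVL2 over the 6 libraries were PI4KA, DST and ZSCAN30 (r of 0.997 each). Most like FADS1 were USP16 (0.997), TMEM170B (0.992) and DHCR7 (0.992), an enzyme of cholesterol synthesis. Most like FADS2 were HAGH (0.994), ZDHHC24 (0.990) and PTPDC1 (0.990), and those most like SCD included HP1BP3 (0.997) and ZNF778 (0.997). With 6 points and so many genes, r near 1 is common among the leaders, and the median over genes was 0.03 for ELOVL2 and -0.04 for SCD.

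The partners of the elongases in each round of elongation, with the cytochrome b5 system that feeds electrons to desaturases, had 1 rise and 2 falls among 12 tested (median log2 change -0.03). In this fit with all libraries 5.19% of all genes were called higher and 4.77% lower. HSD17B12, the ketoacyl reductase of the cycle, fell from 127 ± 4.24 to 105 ± 4.66 TPM (SD, n = 3 each; log2 change -0.25, edgeR adjusted p = 0.0112). CYB5A, the microsomal electron donor, rose by 0.27 (edgeR adjusted p = 0.0149), and CYB5B, its outer mitochondrial relative, fell by 0.18 (0.0321). Of the 6 fits with 1 library left out, HSD17B12 lost its call in 4, CYB5A in 2 and CYB5B in 5. The edgeR adjusted p there reached 0.0704, 0.0852 and 0.144. CYB5B was also not called with the replicate number as a block (edgeR adjusted p = 0.0705). Without shNC 3 the list had 2 rises and 4 falls, where 14.3% and 13.8% of all genes were called higher and lower.

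Other acyl desaturases and hydroxylases had 0 rises and 2 falls among 5 tested (median -0.23). With all libraries 5.19% and 4.77% of all genes were called higher and lower. By an unadjusted p under 0.05 the list had 0 rises and 3 falls, and DESeq2, limma-voom and limma-trend each gave 0 and 2. Without shNC 3 edgeR gave 0 and 3, where 14.3% and 13.8% of all genes were called higher and lower. DEGS1, the desaturase that completes ceramide, fell from 249, 242 and 289 TPM to 200, 198 and 192 TPM. All 3 knockdown values lay below every control value. Its log2 change was -0.37 (SE 0.0584, edgeR adjusted p = 0.00437), and it stayed called in all 6 fits with 1 library left out. DEGS2, its relative that makes phytoceramide, fell by 0.23 (edgeR adjusted p = 0.0288, and up to 0.148 with 1 library left out).

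Acyl-CoA synthetases activate fatty acids for these enzymes. They had 0 rises and 2 falls among 9 tested (median -0.08), where 5.19% and 4.77% of all genes were called higher and lower. Unadjusted there were 2 and 2, DESeq2, limma-voom and limma-trend gave 0 and 2, and so did edgeR without shNC 3. In the fit without shNC 3, 14.3% and 13.8% of all genes were called higher and lower. ACSL4, which prefers arachidonic acid, fell from 2.71 ± 0.356 to 1.42 ± 0.277 TPM (log2 change -0.89, edgeR adjusted p = 0.00960), and ACSL1 fell by 0.21 (0.0308). With 1 library left out their edgeR adjusted p reached 0.0654 and 0.164. Fatty acid synthesis upstream had 0 rises and 1 fall among 10 tested (median -0.003), against the same 5.19% and 4.77% of all genes. Unadjusted there were 2 and 2, DESeq2 gave 1 and 1, as did edgeR without shNC 3, and both limma fits gave 0 and 1. THRSP, a lipogenic regulator, fell from 12.1, 10.8 and 8.08 TPM to 5.42, 4.46 and 5.58 TPM (log2 change -0.97, edgeR adjusted p = 0.0135, and up to 0.0802 with 1 library left out).

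Regulators of desaturase transcription had 0 rises and 1 fall among 22 tested (median -0.06). With all libraries 5.19% and 4.77% of all genes were called higher and lower. Unadjusted, the list had 0 rises and 6 falls, DESeq2 and limma-voom each gave 0 and 1, and limma-trend 0 and 0. Without shNC 3 edgeR called 0 rises and 6 falls among these regulators, where 13.8% of all genes were called lower. The falls there included MBTPS1, the protease that cleaves sterol regulatory element-binding proteins (log2 change -0.23, edgeR adjusted p = 3.84e-05), and PPARA, a fatty acid-sensing nuclear receptor (-0.41, 0.00392), both named after their values were seen. With all libraries MBTPS1 differed by -0.16 and PPARA by -0.36 (edgeR adjusted p = 0.145 and 0.0521). PPARGC1B, a coactivator, fell from 2.06 ± 0.370 to 1.37 ± 0.0950 TPM (log2 change -0.59, edgeR adjusted p = 0.0248, up to 0.121 with 1 library left out). SREBF1, the sterol-sensitive factor best known for driving SCD and FADS2, is named here for that role and outside the naming rule. It stood at 38.7, 38.1 and 34.3 TPM in shNC and 37.4, 36.6 and 34.7 TPM in shCUEDC1, with a log2 difference of 0.02 (adjusted p = 0.923 by edgeR, with 95% bounds of -0.16 and 0.20). SREBF2, on the same list and named after its value was seen, differed by -0.13 (edgeR adjusted p = 0.170, with 95% bounds of -0.25 and -0.01). Without shNC 3 SREBF2 was called lower (log2 change -0.15, edgeR adjusted p = 0.00958). INSIG1, also named after its value was seen, differed by -0.39 (edgeR adjusted p = 0.175), SCAP by -0.03 and INSIG2 by 0.01. Processing of the SREBF1 and SREBF2 products to the active form is not seen in RNA levels.

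Genes for shortening, remodelling and release of polyunsaturated chains had 1 rise and 1 fall among 19 tested (median -0.02). With all libraries 5.19% and 4.77% of all genes were called higher and lower. Unadjusted, the list had 5 rises and 3 falls, DESeq2 gave 1 and 2, limma-voom 1 and 0, and limma-trend 2 and 0. Without shNC 3 edgeR gave 3 rises and 4 falls, where 14.3% and 13.8% of all genes were called higher and lower. ALOX15, a lipoxygenase of arachidonic and linoleic acid, rose from 5.87 ± 0.431 to 8.04 ± 0.948 TPM (log2 change 0.48, edgeR adjusted p = 0.0365). PTGS1, a cyclooxygenase, fell by 1.72 at a level under 1 TPM in every library (edgeR adjusted p = 0.0471). Both lost their calls in 5 of the 6 fits with 1 library left out, with an edgeR adjusted p of up to 0.167 and 0.184.

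**Figure D4:**
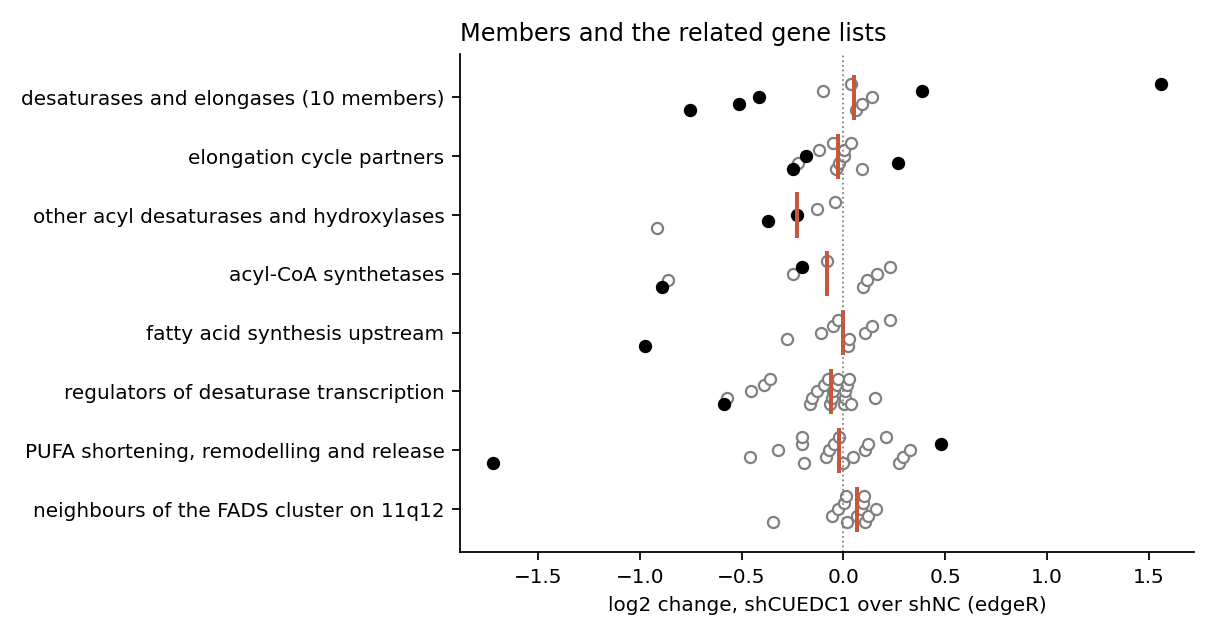
Log2 change, shCUEDC1 over shNC, of the 10 members and of the genes of 7 related lists, filled where the edgeR adjusted p was below 0.05, with a red line at each median and points spread vertically for view only. Over the 7 lists 2 genes rose and 9 fell among 90 tested, against 2 and 3 among the 10 members. Over all tested genes 5.19% were called higher and 4.77% lower.

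Genes around the FADS cluster in band 11q12 were taken to see whether the falls of FADS1 and FADS2 extended along the chromosome. Of 13 neighbours tested, 0 rose and 0 fell by edgeR, with a median log2 change of 0.07. In that fit 5.19% of all tested genes were called higher and 4.77% lower. With shares so small, 0 calls among 13 genes cannot decide whether the falls extended. At an unadjusted p under 0.05 the 13 neighbours had 0 rises and 1 fall, and DESeq2, limma-voom and limma-trend gave 0 and 0. Without shNC 3 edgeR gave 1 rise, SYT7 (log2 change 0.15, adjusted p = 0.0438, named after its value was seen), and 0 falls. In that fit 14.3% and 13.8% of all genes were called higher and lower. TMEM258, at 244 TPM over all libraries, differed by 0.16 (95% interval -0.01 to 0.33), and FTH1, the ferritin heavy chain, by -0.05 (95% interval -0.24 to 0.13), turning to 0.05 without shNC 3. RAB3IL1, named after its value was seen as the single unadjusted fall, lies beyond FADS3 and differed by -0.34 (adjusted p = 0.147 by edgeR, with 95% bounds of -0.65 and -0.04).

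**Figure D5:**
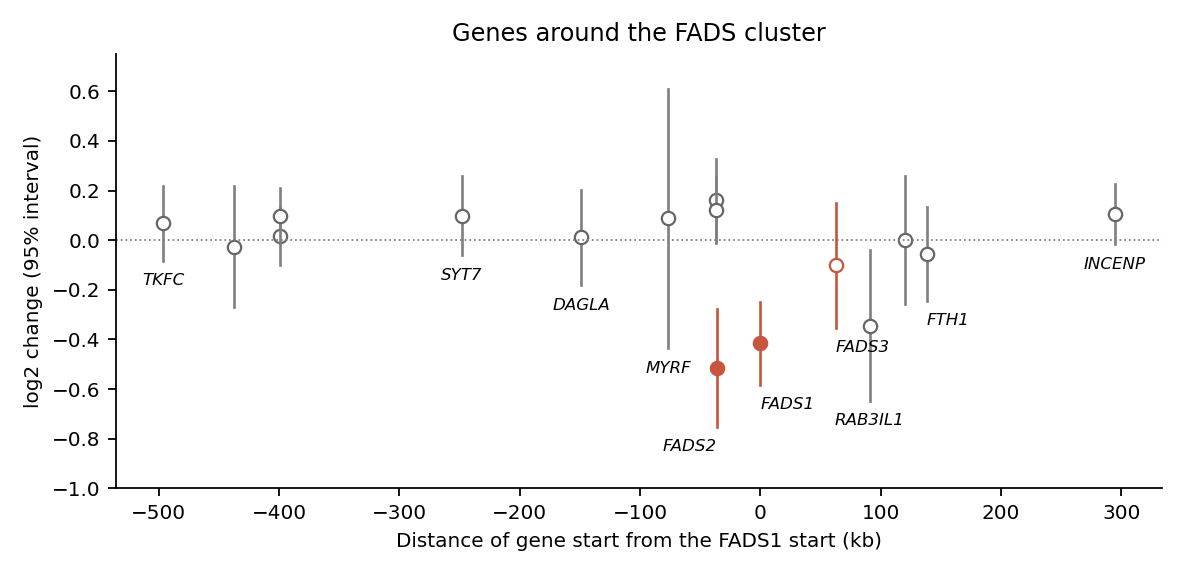
Log2 change, shCUEDC1 over shNC, with 95% interval (edgeR) against the distance of each gene's annotated start from that of FADS1 in kb, with FADS genes in red, the other genes in grey, and filled points where the adjusted p was below 0.05. FADS2 (-0.51) and FADS1 (-0.42) are the filled points, and the 13 neighbours are open.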

How the data were processed

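Poly(A)-selected RNA was sequenced in 6 libraries, per the labels' protocols. The genome build was GRCh38.p13, per the submitters' processing notes, while the sources used here name no aligner or counting program. The authors deposited estimated counts per gene, not normalised, and TPM scaled by them to gene length and library. The 12 other columns with a value per library were not used.

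Estimated counts were rounded, filtered with filterByExpr (minimum count 10), normalised by TMM and tested in R 4.3.3 with robust quasi-likelihood fits of edgeR 4.0.16, over all genes, with Benjamini-Hochberg adjustment. SEs were derived from the F statistics. On counts simulated for shCUEDC1 against shNC, with 13704 genes run, edgeR recovered 72% of genes changed 1.5-fold and 95% of those changed 2-fold, and 5.65% of its calls were unchanged genes. Levels and ratios are TPM. Intervals are 95% and not adjusted for the number of genes. Elongase shares were compared over the 5 elongases, where the plan had counted 6.

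Members and lists were chosen with earlier results of these data known. Named genes were all members, CUEDC1, up to 4 called genes of each list by p (or the 2 most abundant), and the 3 genes most like each of the 4 members with the smallest p. Markers are given as counts and ranges. 1 gene that this rule takes is not reported here. Alternatives were RLE factors, other filters, DESeq2 1.42.0, limma 3.58.1 (voom, and trend on log2 TPM with pseudocounts 0.5, 0.1 and 1), a block for the replicate number, and leaving out each library. Gene positions are from GENCODE 29 (GRCh38).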

Additional observations from a re-analysis of the deposited data

How the results depend on the processing

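The members kept their direction under every alternative run except SCD5, which was not called. Its log2 difference went from -0.0047 (without shCUEDC1 2) to 0.17 (without shCUEDC1 3) with 1 library left out, and that of FTH1, a neighbour gene that was not called, from -0.11 (without shNC 1) to 0.052 (without shNC 3). With 1 library left out, members called higher were 1 to 2, members called lower 1 to 3, and all genes called 468 (without shCUEDC1 2) to 3925 (without shNC 3). Fits with fewer libraries have less power, and only the fit without shNC 3 called more genes. Limma-trend on TPM called 1 member higher in place of 2 with each pseudocount (0.5, 0.1 and 1), since ELOVL5 then had an adjusted p of 0.0515 to 0.0518. Over the 7 related lists together, 2 genes rose and 9 fell with all libraries, where 5.19% and 4.77% of all genes were called higher and lower. With 1 library left out the list counts were 0 to 7 and 1 to 20, highest without shNC 3. In the other fits they were 2 to 3 and 7 to 10. Without a filter on low counts 2 members were called lower, SCD being the one lost.

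The replicate numbers did not pair the libraries: the correlation of deviations from the group means was 0.004, 0.07 and 0.03 for equal numbers. With the replicate number as a block, 1117 genes were called in place of 1377, and the same 2 members were called higher and 3 lower. SCD5, at under 80 reads a library, is the member whose precision depth limits most.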
